A study of Mus musculus with 6 samples.

Results

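The clustered protocadherin genes are 54 of the 9614 genes that the authors' peak lists name on 6 promoter arrays of Ezh2 in mouse embryonic stem (ES) cells. They were taken by name: every gene whose symbol begins with Pcdha, Pcdhb or Pcdhg in any of the 6 lists. That gave 13 genes of the alpha cluster, 19 of the beta cluster and 22 of the gamma cluster. A gene enters the lists only beside a peak on at least 1 array, so members without any peak are not among the 54. The RefSeq gene table of assembly GRCm38.p6 has 57 protein-coding symbols of the family, of which 53 are in the lists; the remaining member, Pcdhgb8, is a transcribed pseudogene there. Pcdha6, Pcdhb9, Pcdhb15 and Pcdhb20 were not analysed here.

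Ezh2 is the methyltransferase subunit of Polycomb repressive complex 2, and the series asked how loss of Brca1, a DNA repair protein, affects where Ezh2 sits. Each array set Ezh2 immunoprecipitate against input DNA. R1 ES cells had been transfected with control siRNA (1 array) or Brca1 siRNA (1 array) and harvested 48 hours later. The AB2.2 line, wild-type for Brca1, and the PL2F8 line, deficient in it, had 2 arrays each; both are given the strain 129/SvEvBrd-Hprtb-m2, and PL2F8 is a single line, so Brca1 status and line cannot be told apart. No label ties the duplicates to separate cultures, so the p-values rest on a spread between arrays that may be technical. The arrays measure DNA, so neither the loss of Brca1 nor the identity of the cells by expression can be checked on them.

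Clustered protocadherins are cell-surface adhesion proteins that neurons use to tell their own branches from those of other cells. In the alpha and gamma clusters each variable exon has its own promoter and is spliced to constant exons shared by the cluster, while beta genes have no shared constant exons. In neurons the variable promoters are chosen cell by cell, with CTCF, cohesin and DNA methylation taking part, whereas the C-type genes (Pcdhac1, Pcdhac2, Pcdhgc3, Pcdhgc4 and Pcdhgc5) are used more uniformly.

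All 54 starts lie on the plus strand of chromosome 18, from 37089938 to 37979199, a stretch of 889261 bp in the coordinates of the files (the build was not given in the sources used here). The alpha starts cover 213684 bp, the beta starts 253355 bp and the gamma starts 157601 bp. Array tiles reach from 3200 bp upstream to 800 bp downstream of a start. The level of a gene is the mean log2 ratio of immunoprecipitate over input of the probes within 1 kb of its start, after each array was centred on its median probe; 15 to 20 probes carried each member, and no probe served 2 members. On this scale 0 is the middle probe of the array, and a difference of 1 is a ratio of 2. The median over 9612 named genes with a window ran from 0.40 to 0.87 across arrays, and was higher on both PL2F8 arrays (0.87 and 0.81) than on both AB2.2 arrays (0.53 and 0.40). The median PL2F8 minus AB2.2 over these genes was 0.41, and the members below are read against it.

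Mean Ezh2 levels separated the beta cluster from alpha and gamma on every array, while the order of alpha and gamma differed between the lines. The alpha cluster had means of 1.503 ± 0.002 (SD, n = 2) in AB2.2 and 1.45 ± 0.007 (SD, n = 2) in PL2F8, and of 1.34 and 1.27 in R1 without and with Brca1 siRNA. Its 11 variable genes alone had 1.27 ± 0.01 in AB2.2, 1.14 ± 0.007 in PL2F8 (SD, n = 2 each), and 1.01 and 0.96 in R1. The beta cluster was the lowest, at 0.66 ± 0.01 in AB2.2, 0.79 ± 0.01 in PL2F8 (SD, n = 2 each), and 0.76 and 0.81 in R1 in the same order. The gamma cluster had 1.21 ± 0.06 in AB2.2, 1.64 ± 0.06 in PL2F8 (SD, n = 2 each), and 1.52 and 1.42 in R1. Ranked among all named genes, the median member stood at the 64.1th percentile for alpha, the 49.7th for beta and the 75.5th for gamma. Beta genes were thus at the middle of the genes that have a peak somewhere. The median named gene was exceeded on all 6 arrays by 4 of 19 beta, 8 of 13 alpha and 17 of 22 gamma genes. Among all named genes, 3500 of 9612 exceeded it on all 6.

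**Figure D1:**
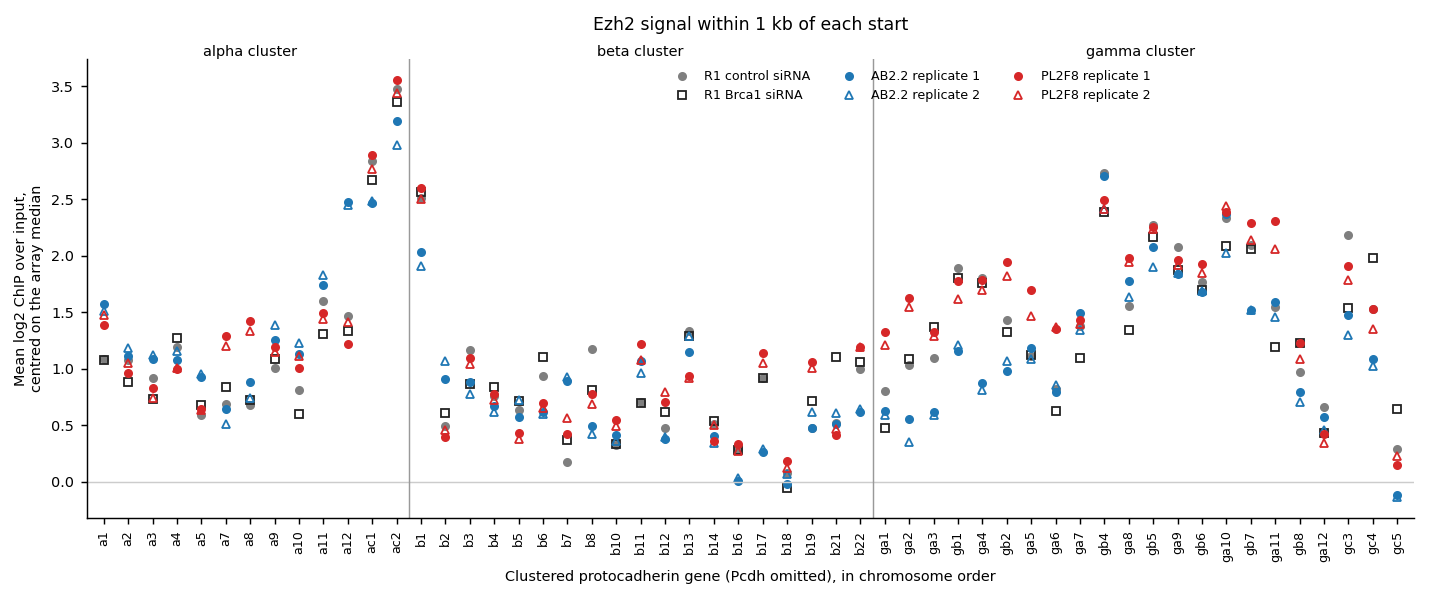
Mean log2 ChIP over input within 1 kb of the start (vertical axis) for the 54 members in chromosome order (horizontal axis), 1 point per array. Pcdhac1, Pcdhac2 and Pcdhb1 stand together above 1.9 on every array, as do the gamma genes Pcdhgb4, Pcdhga10 and Pcdhgb5. The other beta genes stay at or below 1.33, and the early gamma genes separate PL2F8 (red) from AB2.2 (blue).

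The highest level of the locus was at Pcdhac2, the last alpha gene, and its neighbours Pcdhac1 and Pcdhb1 were high too. This was not particular to them. Over the 6 arrays Pcdhac1 averaged 2.69 and Pcdhb1 2.35, where the gamma genes Pcdhgb4 and Pcdhga10 averaged 2.52 and 2.27. Pcdhac2, a C-type gene, had levels of 3.47 and 3.36 on the R1 control and Brca1 siRNA arrays, 3.20 and 2.98 in AB2.2, and 3.56 and 3.44 in PL2F8. Its tile is chr18:37300422-37304422. Pcdhac1, the other alpha C-type gene, had 2.84 and 2.67 in R1, 2.47 and 2.48 in AB2.2, and 2.89 and 2.77 in PL2F8. Both were the top alpha genes on 5 arrays, while on AB2.2 replicate 1 Pcdha12 at 2.47 equalled Pcdhac1. Pcdhb1, the first beta gene (chr18:37421451-37425451), had 2.51 and 2.56 in R1, 2.04 and 1.91 in AB2.2, and 2.60 and 2.50 in PL2F8. No other beta gene reached 1.34 on any array: Pcdhb13 came next, with 1.33 and 1.29 in R1, 1.15 and 1.29 in AB2.2, and 0.94 and 0.92 in PL2F8. Without Pcdhb1 the mean of the beta cluster was 0.58 ± 0.02 in AB2.2 and 0.70 ± 0.01 in PL2F8 (SD, n = 2 each). The lowest beta gene was Pcdhb18, between -0.06 and 0.18 on the 6 arrays, followed by Pcdhb16, between 0.003 and 0.33.

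Along the tiles the alpha variable genes had their highest signal downstream of the start, while the C-type genes had signal on both sides of it. In the 11 alpha variable genes the mean of 250 bp bins was -0.02 to 0.26 in the bin from -500 to -250 bp in the AB2.2 and PL2F8 lines and rose to 3.16 in AB2.2 and 3.08 in PL2F8 from 250 to 500 bp, with 2.74 and 2.55 on the R1 control and Brca1 siRNA arrays. In the 5 C-type genes the mean was 1.22 in AB2.2 and 1.00 in PL2F8 from -750 to -500 bp, 2.055 and 2.54 from -250 to 0 bp, and 1.97 and 2.80 from 0 to 250 bp. The Pcdhac2 probe at -542 bp had 4.41 and 3.75 in AB2.2 and 3.98 and 3.82 in PL2F8. The 7 gamma B genes peaked from 0 to 250 bp in PL2F8, at 3.93, where AB2.2 had 2.62. In the 12 gamma A genes the signal from 0 to 250 bp was 1.69 in AB2.2 and 2.70 in PL2F8. The 18 beta genes other than Pcdhb1 stayed between 0.83 and 1.35 in AB2.2 and between 1.19 and 1.69 in PL2F8 over the bins downstream of the start. In the gamma A genes a second rise lay far upstream, from 0.12 in AB2.2 and 0.03 in PL2F8 at -1250 to -1000 bp to 1.49 and 2.27 at -3250 to -3000 bp. It was not particular to them. In that far bin gamma B genes had 1.00 and 1.36, and beta genes other than Pcdhb1 0.70 and 0.72. Alpha variable genes had 0.64 and 0.67 there, and C-type genes 0.18 and 0.32. Gamma starts lie a median of 5230 bp apart, so the upstream end of a gamma tile reaches towards the preceding member.

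**Figure D2:**
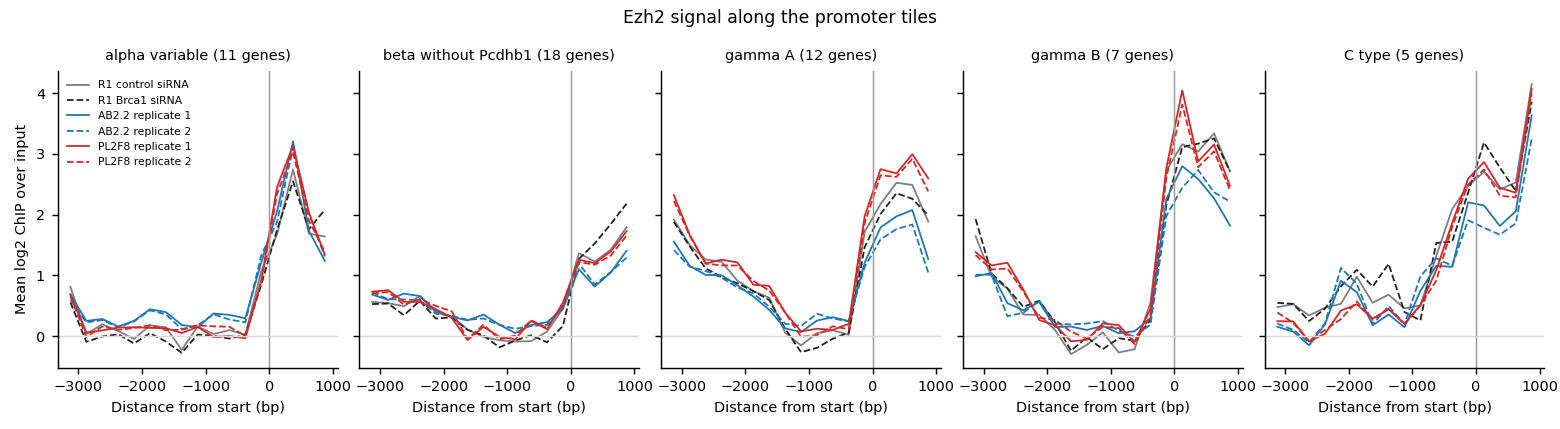
Mean log2 ChIP over input in 250 bp bins (vertical axis) by distance from the start (horizontal axis, negative is upstream), 1 line per array, for the alpha variable, beta (without Pcdhb1), gamma A, gamma B and C-type genes. The 6 lines of the alpha variable genes reach 2.55 to 3.21 from 250 to 500 bp, the beta lines stay low, and both gamma panels show PL2F8 (red) above AB2.2 (blue) downstream of the start.

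The comparison of the Brca1-deficient line with the wild-type line used limma over all 9612 windows, with Benjamini-Hochberg adjustment and a threshold of 0.05. Of the 54 members, 28 were higher in PL2F8 (51.9%), against 64.4% of all named genes, and 8 were lower (14.8%), against 7.53%. The other 18 did not pass. Of differences of at least 0.5, there were 14 rises among members (25.9%, all named genes 41.2%) and 2 falls (3.70%, all named genes 3.31%). Both PL2F8 arrays lay above both AB2.2 arrays at 36 members (66.7%, all named genes 75.6%) and below at 15 (27.8%, all named genes 12.4%). The median member differed by 0.25. These counts follow the zero point of the arrays: centred on named genes without a strong peak, where the median of all named genes falls to 0.08, 13 members were higher and 23 lower (all named genes 37.1% and 25.1%), and with quantile normalization, where it is 0.22, 20 were higher and 16 lower (53.9% and 16.9%). PL2F8 replicate 1 has an array number next to those of R1, while PL2F8 replicate 2 is numbered with the AB2.2 pair; without replicate 1 the counts were 15 and 2 (45.4% and 4.61%), and without PL2F8 replicate 2 they were 21 and 3 (52.7% and 4.26%).

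The alpha cluster had 4 rises and 4 falls (30.8% each) and 5 genes that did not pass. The median of its differences was -0.12. Among the beta genes there were 8 rises (42.1%), 4 falls (21.1%) and 7 that did not pass, around a median of 0.14. Of all named genes, 64.4% were higher and 7.53% lower. The gamma cluster had 16 rises, 0 falls and 6 that did not pass, and its median of 0.43 was near the 0.41 of all named genes. The share of gamma genes called higher, 72.7%, was likewise close to the background of 64.4%, and 0 were lower, where all named genes gave 7.53%. With this processing the gamma median lay near that of the named genes, while alpha and beta stood below it. By the median of probes gamma was at 0.75, against 0.42 for all named genes, and downstream only at 0.67, against 0.55. No test of the clusters against each other was made.

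**Figure D3:**
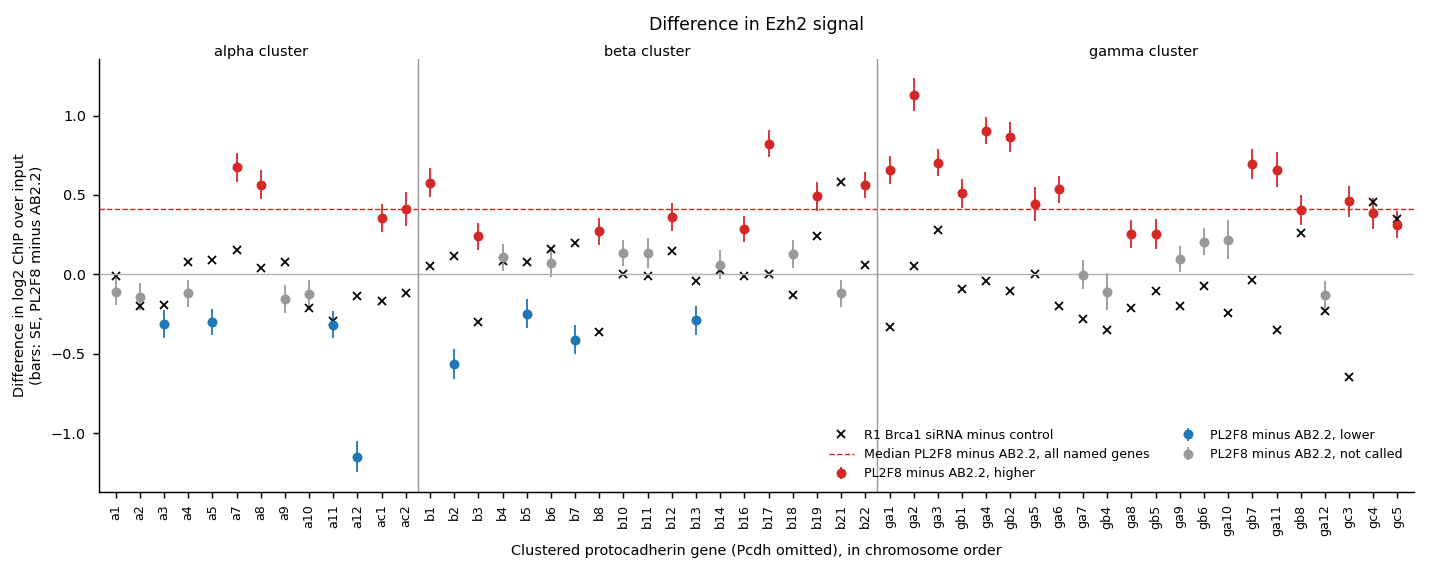
PL2F8 minus AB2.2 in log2 ChIP over input (circles with SE; red higher, blue lower, grey not called) and R1 Brca1 siRNA minus control (crosses, 1 array each) for the 54 members in chromosome order; the dashed line is the median PL2F8 minus AB2.2 of all named genes, 0.41. Pcdha12 at -1.15 and Pcdhga2 at 1.13 are the extremes.

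Of 11 alpha variable genes, 2 rose (18.2%, all named genes 64.4%), 4 fell (36.4%, all named genes 7.53%) and 5 did not pass. Both PL2F8 arrays lay below both AB2.2 arrays at 9 of the 11 (81.8%, all named genes 12.4%). In 250 bp bins their mean was lower in PL2F8 by 0.23 to 0.37 in each bin from -1000 to 0 bp. Downstream, from 0 to 1000 bp, PL2F8 minus AB2.2 was 0.43, -0.07, 0.09 and 0.09, so the lower window means lay mainly upstream. By the median of probes the alpha cluster had 6 rises and 2 falls (all named genes 57.4% and 3.51%), and downstream only 4 and 4 (61.8% and 7.55%). With the main setting the falls were Pcdha12, Pcdha11, Pcdha3 and Pcdha5. Pcdha12, the last variable gene before the C-type genes (chr18:37176683-37180683), fell from 2.47 and 2.45 in AB2.2 to 1.22 and 1.41 in PL2F8, which is -1.15 ± 0.10 (SE, limma adjusted p = 0.000199) and a ratio of 0.451. It is the largest fall among the members. Both R1 arrays, at 1.47 and 1.34, lay with PL2F8 and not with AB2.2. Single probes carried the fall from 173 bp upstream of the start to the end of the tile: the probe at 377 bp had 6.58 and 6.30 in AB2.2, 3.65 and 3.80 in PL2F8, and 4.15 and 3.26 in R1. Its upstream neighbour Pcdha11 fell less, from 1.74 and 1.83 to 1.49 and 1.44, a difference of -0.32 ± 0.09 (SE, limma adjusted p = 0.0128). Pcdha5 fell from 0.93 and 0.95 to 0.65 and 0.64, a difference of -0.30 ± 0.08 (SE, limma adjusted p = 0.0138). Neither of these calls held when 1 PL2F8 array, whichever it was, was left out (Pcdha11 -0.34 and -0.29, Pcdha5 -0.30 and -0.29), and Pcdha11 gave 0.60 by the median of its probes and Pcdha5 0.12 in a window of 500 bp.

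Pcdha7 and Pcdha8, neighbours in the middle of the cluster, were the alpha variable genes that rose. Pcdha7 had 0.64 and 0.51 in AB2.2 and 1.29 and 1.20 in PL2F8, a difference of 0.67 ± 0.09 (SE, limma adjusted p = 0.00074). Pcdha8 had 0.88 and 0.74 in AB2.2 and 1.42 and 1.34 in PL2F8, a difference of 0.56 ± 0.09 (SE, limma adjusted p = 0.00149). In R1 the control and Brca1 siRNA levels were 0.69 and 0.84 at Pcdha7 and 0.68 and 0.72 at Pcdha8; at Pcdha7 both lay above the AB2.2 arrays and at Pcdha8 both lay below them, and at both genes they lay below the PL2F8 arrays. The rise at both genes sat in a short stretch downstream of the start, where the pair gave nearly the same values. At 475 bp in Pcdha7 the probe had 0.05 and -0.19 in AB2.2 and 4.07 and 3.63 in PL2F8. At 486 bp in Pcdha8 it had -0.23 and -0.35 in AB2.2 and 3.68 and 3.40 in PL2F8. Closer to the start of Pcdha8 the probes varied: at 276 bp AB2.2 had 3.36 and 3.07 and PL2F8 had 3.38 and 3.26, whereas at 186 bp AB2.2 had 0.98 and 0.38 and PL2F8 had 2.15 and 2.10. Probe names on these arrays carry a field called count, above 1 at 5.51% of all probes and at 70 of the 949 member probes; its meaning was not given in the sources used here. Pcdha7 has 4 such probes and Pcdha8 has 7, and most of the stretch lies on them. Without them the difference was 0.25 at Pcdha7 (limma adjusted p = 0.0447) and -0.15 at Pcdha8 (limma adjusted p = 0.173), so the Pcdha8 rise rests on those probes.

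**Figure D4:**
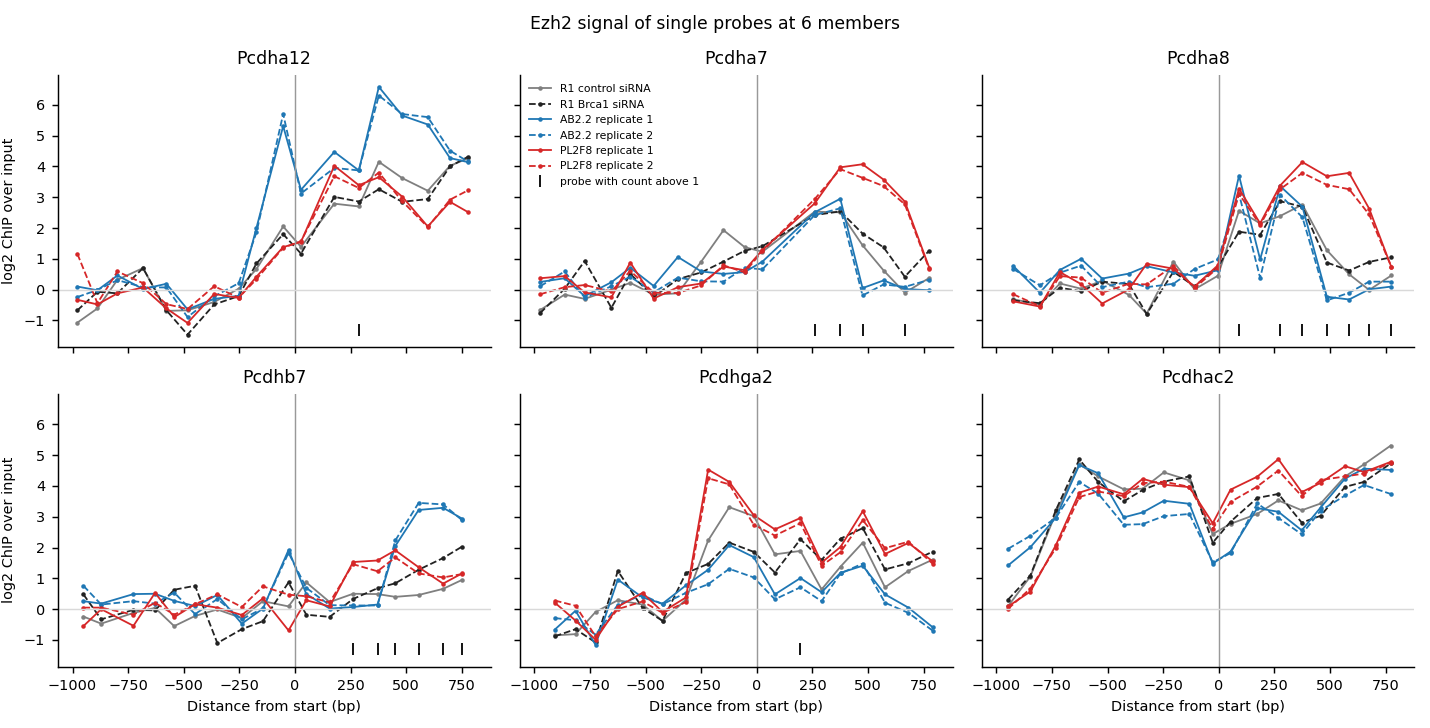
log2 ChIP over input of single probes (vertical axis) by distance from the start (horizontal axis) at 6 members, 1 line per array; ticks at the bottom mark probes with a count field above 1. AB2.2 (blue) stands apart at Pcdha12, PL2F8 (red) alone stays high from about 475 to 676 bp at Pcdha7 and Pcdha8, and at Pcdhac2 all 6 arrays are high from -732 bp to the end of the tile, with R1 and PL2F8 low at -947 bp.

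In the beta cluster, which encodes protocadherins without shared constant exons, 8 genes rose and 4 fell. Pcdhb1 rose by 0.58 ± 0.09 (SE, limma adjusted p = 0.00131) from its already high level. Pcdhb17 rose most, from 0.26 and 0.29 in AB2.2 to 1.14 and 1.05 in PL2F8, a difference of 0.82 ± 0.09 (SE, limma adjusted p = 0.000303). Both R1 arrays, at 0.91 and 0.92, were near PL2F8 at this gene. Pcdhb22, the last beta gene, rose by 0.56 ± 0.08 (SE) and Pcdhb19 by 0.49 ± 0.09 (SE). Pcdhb8, at 0.49 and 0.43 in AB2.2 and 0.78 and 0.68 in PL2F8, rose by 0.27, and Pcdhb16 by 0.29; both are below the 0.41 of all named genes. Neither call held when replicate 1 or replicate 2 of PL2F8 was left out, where the differences were 0.22 and 0.32 at Pcdhb8 and 0.26 and 0.31 at Pcdhb16.

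Falls in the beta cluster were at Pcdhb2, Pcdhb7, Pcdhb13 and Pcdhb5. Pcdhb2 went from 0.91 and 1.07 in AB2.2 to 0.39 and 0.46 in PL2F8, a difference of -0.56 ± 0.09 (SE, limma adjusted p = 0.00162). The R1 arrays, at 0.49 and 0.60, were near PL2F8. By the median of its 18 probes the difference at Pcdhb2 was -0.0025, and by the mean in a window of 500 bp it was -1.02. How many probes carry the fall was not counted. Pcdhb7 went from 0.89 and 0.92 to 0.42 and 0.57, a difference of -0.41 ± 0.09 (SE, limma adjusted p = 0.00549), which was not called without PL2F8 replicate 1, at -0.34. Its probes moved in both directions: at 556 bp AB2.2 had 3.22 and 3.45 against 1.36 and 1.16 in PL2F8, whereas at 371 bp AB2.2 had 0.15 and 0.12 against 1.58 and 1.23 in PL2F8. Both positions carry a count field of 2. Pcdhb13 fell by 0.29 ± 0.09 (SE, limma adjusted p = 0.0223); it was not called without PL2F8 replicate 1 (-0.30) or replicate 2 (-0.28), and was 0.56 by the median of its probes.

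In the gamma cluster most of the larger rises lay among the first genes. The first 8 genes, Pcdhga1 to Pcdhga6, rose by 0.45 to 1.13 and all 8 were called; their means were 0.45 to 1.18 in AB2.2, 1.27 to 1.89 in PL2F8 and 0.80 to 1.89 on the R1 control array. The next 7, Pcdhga7 to Pcdhga10, differed by -0.11 to 0.26 and 2 were called higher; here the AB2.2 means were already 1.42 to 2.56, and PL2F8 had 1.42 to 2.45. Pcdhgb7, Pcdhga11 and Pcdhgb8 rose again by 0.41 to 0.70, and Pcdhga12 did not pass. These runs were drawn after the values were seen and are a description. By type, 8 of 12 gamma A genes (66.7%) and 5 of 7 gamma B genes (71.4%) were higher, against 64.4% of all named genes. Their median differences were 0.49 and 0.41.

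Pcdhga2 had the largest rise of all members (chr18:37825558-37829558): 0.56 and 0.35 in AB2.2 against 1.62 and 1.55 in PL2F8, with 1.03 and 1.09 in R1. The difference was 1.13 ± 0.10 (SE, limma adjusted p = 0.000218), a ratio of 2.19, and the 4 arrays did not overlap. Most of it lay around the start: the probe at -219 bp had 1.28 and 0.81 in AB2.2, 4.53 and 4.25 in PL2F8, and 2.23 and 1.47 on the R1 control and Brca1 siRNA arrays. Pcdhga4 came next, from 0.87 and 0.81 to 1.79 and 1.70, a difference of 0.91 ± 0.09 (SE, limma adjusted p = 0.000249); R1 had 1.80 and 1.76, the level of PL2F8. The highest gamma gene was Pcdhgb4, with 2.73 and 2.39 in R1, 2.71 and 2.41 in AB2.2, and 2.49 and 2.41 in PL2F8, and its arrays overlapped; without AB2.2 replicate 2 the difference was -0.25 and passed, and without AB2.2 replicate 1 it was 0.0372. Without its 4 probes of count above 1 it was -0.29 and passed as lower (limma adjusted p = 0.0374), and by the median of its probes it was 0.42 and passed as higher (limma adjusted p = 0.0346). The rank of Pcdhgb4 rests on those 4 probes: its mean level over the 6 arrays was 2.52 with them and 1.96 without, below the 2.27 of Pcdhga10. Pcdhga10 followed, with 2.33 and 2.09, 2.37 and 2.03, and 2.39 and 2.44 in the same order, a difference of 0.22 that did not pass and that passed at 0.39 without AB2.2 replicate 1. Pcdhga12, the last A-type gene, was among the lowest, with 0.66 and 0.43 in R1, 0.57 and 0.46 in AB2.2, and 0.42 and 0.34 in PL2F8; it passed as lower, at -0.19, without AB2.2 replicate 2.

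All 5 C-type genes were higher in PL2F8 (all named genes 64.4%), by 0.31 to 0.46, a range that holds the 0.41 of all named genes. Their levels spread from the highest member of the locus to the lowest gamma gene. Pcdhac2 differed by 0.41 ± 0.11 (SE, limma adjusted p = 0.0102) and Pcdhac1 by 0.35 ± 0.09 (SE, limma adjusted p = 0.00901). Pcdhgc3 had 1.47 and 1.30 in AB2.2 and 1.91 and 1.78 in PL2F8, a difference of 0.46 ± 0.10 (SE, limma adjusted p = 0.0051). Pcdhgc4, whose loss in mice affects the survival of interneurons, had 1.08 and 1.02 against 1.53 and 1.35, a difference of 0.38 ± 0.10 (SE, limma adjusted p = 0.00897). Pcdhgc5 had -0.12 and -0.14 against 0.15 and 0.23, a difference of 0.31 ± 0.08 (SE, limma adjusted p = 0.0128), and stayed near the array median in both lines. The C-type windows hold 0 probes with a count field above 1. Centred on named genes without a strong peak, the 5 differences were -0.02 to 0.13 and none passed, and without PL2F8 replicate 1 they were 0.29 to 0.40 and none passed, with limma adjusted p from 0.0663 to 0.171.

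Brca1 siRNA in R1 gave small differences at these genes, with 1 array per group and no replicate check. Brca1 siRNA minus control had medians of -0.11 in alpha, 0.05 in beta and -0.10 in gamma, against -0.02 over all named genes. A difference of at least 0.5 was seen at 1 member upwards, where all named genes gave 5.29%, and at 1 downwards, where they gave 5.93%. The rise was Pcdhb21, from 0.52 to 1.11. The fall was Pcdhgc3, from 2.18 to 1.54, while its neighbours Pcdhgc4 and Pcdhgc5 went from 1.53 to 1.98 and from 0.29 to 0.64. Pcdhga2 and Pcdha12, the extremes between the ES lines, differed by 0.06 and -0.13 in R1. By any amount, 16 of 22 gamma genes were lower with Brca1 siRNA (all named genes 52.4%), and 13 of 19 beta genes were higher (all named genes 47.6%).

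The authors' peak lists were set beside the levels. Scores and false discovery rates of peaks are the authors' own, and peaks were listed for each array separately. Members with a listed peak numbered 49 and 51 in R1 without and with Brca1 siRNA, 43 and 42 in AB2.2, and 48 and 48 in PL2F8; of all named genes, 66.7%, 68.5%, 58.5%, 51.6%, 68.8% and 67.5% had one in the same order. A peak on all 6 arrays was listed at 37 members (68.5%), against 38.6% of named genes: 10 of 13 alpha, 8 of 19 beta and 19 of 22 gamma genes. Pcdha7, Pcdha8, Pcdhb4, Pcdhb17, Pcdhga2 and Pcdhga3 had a listed peak in both PL2F8 replicates and in neither replicate of AB2.2, 6 members (11.1%) where the named genes gave 15.7%. The reverse held for 0 members, where the named genes gave 5.49%. At Pcdha7 and Pcdha8 the PL2F8 peaks, centred 439 to 544 bp downstream, overlap the stretch that lies mostly on probes with a count field above 1. They are therefore not separate from the rise in signal described for these genes. At Pcdha12, the largest fall in signal, all 6 arrays kept a peak, with scores of 4.49 and 4.48 in AB2.2, 3.03 and 2.90 in PL2F8, and 3.60 and 2.92 in R1.

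Some listed peaks lay closer to another member than to the gene they were assigned to. At 6 members a peak was centred over 1 kb upstream of the start on at least 1 array, 25 entries in all. On AB2.2 replicate 2 and PL2F8 replicate 2 the entry of Pcdhgc5 was the same peak as that of Pcdhgc4, with scores of 1.70 and 1.83. Pcdhb18, the beta gene with the lowest window, had such a peak on all 6 arrays, with scores of 2.17 to 3.67, 2514 to 2914 bp upstream of its own start and 1530 to 1930 bp downstream of the start of Pcdhb17. Pcdhb16 had one on all 6 arrays too, 2152 to 2560 bp upstream, with scores of 2.31 to 3.83. Pcdhga12 had one on 3 arrays, 2120 bp upstream and 1581 bp downstream of the start of Pcdhgb8. A listed peak at these genes need not be signal at their own start. Counted by overlap with the window within 1 kb, members with a peak numbered 46, 49, 38, 37, 43 and 43 in the same array order as above, and 31 had one on all 6. By this rule, at any of their starts, 60.6%, 61.4%, 54.1%, 47.2%, 65.1% and 63.9% of all named genes had a peak, and 36% had one on all 6.

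Genes that work with the clustered protocadherins, or that lie beside them, were read from their own windows. The counts below stand beside 64.4% of all named genes higher in PL2F8 and 7.53% lower. Of 23 regulators listed (cohesin, its loaders and release factors, CTCF, DNA methyltransferases and silencing factors), 11 are named and had a window. Of these, 8 rose in PL2F8, 1 fell and 2 did not pass, around a median of 0.38. Smchd1, a chromosomal protein that represses the protocadherin clusters in mouse, rose by 0.50 ± 0.11 (SE), and Dnmt3b, a de novo DNA methyltransferase that methylates protocadherin promoters in the embryo, rose by 0.96 ± 0.12 (SE). Pds5a, which regulates the release of cohesin, rose by 1.28 ± 0.10 (SE), and Dnmt3l, a cofactor of DNA methyltransferases, fell by 0.41 ± 0.09 (SE). Of 13 signalling partners, 10 had a window: 5 rose, 2 fell and 3 did not pass, around a median of 0.33. Fyn, a kinase that binds alpha protocadherins in mouse brain, rose by 0.50 ± 0.09 (SE), and Marcks, a protein kinase C substrate, fell by 1.19 ± 0.09 (SE).

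Of 24 flanking genes, 9 had a window: 6 were higher, 2 lower and 1 not called, with a median of 0.39. Here too all named genes gave 64.4% higher and 7.53% lower. Arap3, beyond the gamma end, rose by 1.45 ± 0.08 (SE) from -0.09 to 1.36. Among 13 non-clustered protocadherins, adhesion genes of the same superfamily, 11 had a window, of which 8 were higher, 0 lower and 3 not called, with a median of 0.41. Their median percentile of level was 93.7, where the gamma cluster had 75.5. Of 22 classical and related cadherins, 18 had a window: 11 were higher, 0 lower and 7 not called, with a median of 0.35. All 5 lists had medians near the 0.41 of all named genes, above the -0.12 and 0.14 of the alpha and beta clusters.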

How the data were processed

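The authors deposited a log2 ratio of Ezh2 immunoprecipitate over input for each of 714900 probes on 6 arrays. Raw medians of 0.02 to 0.04 show that the arrays had been centred near 0; the method, the peak caller and the genome build were not given in the sources used here. The direction and the scale were checked against the peak scores, which correlated with the fourth highest probe in a peak at r of 0.969 to 0.986 across peaks. Per the file headers, peaks have a score and a false discovery rate (at most 0.198, treated as a q-value), and a start with a gene symbol. A peak could be listed at more than 1 start. The score, a log2 value, is the authors' own. Arrays give no read depth; their number limits the precision.

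Each array was centred on its median. The probes within 1 kb of a listed start were averaged, and 9612 of 9614 genes had at least 5. AB2.2 and PL2F8 (2 arrays each) were fitted with limma 3.58.1 in R 4.3.3 (lmFit, eBayes, two-sided, Benjamini-Hochberg over all windows, threshold 0.05), after a test on simulated data; SE is the moderated error. Python 3.11.15, numpy 2.4.6, pandas 2.3.3 and matplotlib 3.10.9 were also used. Windows of 500 and 2000 bp, the downstream side, the probe median, a minimum of 3 probes, a single start, other scalings and centrings, a replicate block and arrays left out were alternatives, and leaving out probes with a count field above 1 was chosen after seeing the data.

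The members, gene lists and tests were chosen with earlier results of these data known. Members named are the C-type genes and, in each cluster, the 2 highest and 2 lowest levels, the 2 largest and 2 smallest PL2F8 minus AB2.2, and the highest and lowest R1 difference; other members were named after their values were seen.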

Additional observations from a re-analysis of the deposited data

Results flagged for a closer look

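Only the members picked by the naming rule above were screened here. At the following of them every AB2.2 to PL2F8 contrast ran one way and the R1 siRNA contrast the other. Unscreened members did so too, among them Pcdhga1 (0.66 and -0.33), Pcdhga11 (0.66 and -0.35) and Pcdhb5 (-0.25 and 0.08), so the list is not complete. The difference between the contrasts was not tested, and R1 has 1 array per group. Higher in PL2F8 and lower with Brca1 siRNA were Pcdhac1 (0.35 and -0.17), Pcdhac2 (0.41 and -0.11), Pcdhb8 (0.27 and -0.365), Pcdhb16 (0.29 and -0.0122), Pcdhb18 (0.13 and -0.13), Pcdhga4 (0.91 and -0.0422), Pcdhga10 (0.22 and -0.24) and Pcdhgc3 (0.46 and -0.64). Lower in PL2F8 and higher with Brca1 siRNA were Pcdha5 (-0.30 and 0.0925), Pcdhb2 (-0.56 and 0.11), Pcdhb7 (-0.41 and 0.20) and Pcdhb21 (-0.12 and 0.58). The mean of the gamma cluster was 0.43 higher in PL2F8 and differed by -0.0945 in R1. Of the values listed here, Pcdhb18, Pcdhb21 and Pcdhga10 did not pass limma between the lines.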

How the results depend on the processing

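Values are given as main and alternative. Members higher in PL2F8 numbered 28 and, centred on genes without a strong peak, 13; members lower numbered 8 and became 23 with that centring, 16 with quantile normalization and 3 by the median of probes (3.51% of all named genes). Leaving out each array in turn gave 15 to 31 higher (all named genes 45.4% to 76.2%) and 2 to 11 lower (4.26% to 12.5%); the lone array of a line is then assumed to vary like the other line. The fit without PL2F8 replicate 1 is also the comparison within 1 series of array numbers. The replicate block gave 29 higher and 8 lower (69.4% and 9.01% of all named genes) and changed no named call; same-numbered arrays share only a number, and their deviations correlated at r = 0.249 over 9612 genes. A minimum of 3 probes and a single start changed no named call either.

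Median PL2F8 minus AB2.2 with that centring, downstream only, by the probe median and with quantile normalization was -0.45, 0.20, 0.285 and -0.34 for alpha (-0.12), -0.20, 0.25, 0.1975 and 0.00051 for beta (0.14), and 0.0953, 0.67, 0.75 and 0.22 for gamma (0.43); over all named genes it was 0.08, 0.55, 0.42 and 0.22. In a window of 500 bp it was -0.0356 for alpha, 0.085 for beta and 0.59 for gamma, in 2000 bp 0.0614 for beta and 0.32 for gamma, and without probes of count above 1 it was 0.0617 for beta. With an array left out, beta ran from 0.106 to 0.164 and gamma from 0.34 to 0.50. The sign of the alpha and beta medians therefore depends on these settings, and so does the distance of gamma from all named genes. The cause was not tested.

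In R1 the siRNA medians by the probe median were -0.035 for alpha, 0.01 for beta and -0.0225 for gamma. Scaled to the same median absolute deviation they were -0.20, -0.00412 and -0.20. Quantile normalization gave -0.0154 for alpha and 0.0795 for beta. Beta was also 0.0800 with the other centring, 0.19 downstream, -0.076 in 500 bp and 0.0158 without probes of count above 1.

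Named differences that changed sign were, with the other centring, Pcdhb8 -0.0603, Pcdhb16 -0.0445, Pcdhb18 -0.20, Pcdhga10 -0.11 and Pcdhgc5 -0.0175. By the probe median they were Pcdha11 0.5975, Pcdhb7 0.005, Pcdhb13 0.56 and Pcdhgb4 0.4175. In 500 bp they were Pcdha5 0.12, Pcdhb7 0.11 and Pcdhgb4 0.13, and in 2000 bp Pcdhb18 -0.0634, Pcdhgb4 0.0374 and Pcdhga12 0.17. Downstream only, Pcdhgb4 gave 0.11 and Pcdhga12 0.0125; with quantile normalization Pcdhga10 gave -0.0435; with an array left out Pcdhgb4 ran from -0.254 to 0.0372; and without probes of count above 1 Pcdha8 gave -0.15. Listed peaks of false discovery rate at or under 0.05 were at 36, 36, 28, 29, 34 and 37 members and at 42%, 44.4%, 39.3%, 35.3%, 42.5% and 43.6% of all named genes.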
